A study of Mus musculus with 12 samples.

Results

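E33 is a small molecule known here by its code only. It was given to BV2 cells, an immortalised mouse microglial line, for 4 h after activation with LPS (lipopolysaccharide, from the outer membrane of bacteria) at 1 µg/ml and IFN-γ (interferon-γ) at 10 ng/ml. The E33 array was set against the median of 9 other activated arrays. These were cells activated the same way and given E4, E5, E14, E18, E19, E20, E21 or E23, and an activated control given no compound. A culture given neither the activation stimuli nor a compound (the non-activated control) served as the baseline. Together these are 11 of the 12 arrays of the study. The remaining array, E29, was kept out of the comparison, and its values are given where they bear on a result. The sources used here give neither identity nor dose nor vehicle for any compound. BV2 is 1 immortalised line, so the values stand for that line and not for microglia of the brain.

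Microglia are the resident macrophages of the brain. LPS is sensed through Toll-like receptor 4, and the signal reaches the NF-κB and interferon regulatory factors that switch on cytokine, chemokine and interferon genes. IFN-γ acts through its own receptor on an overlapping set of genes. Activation also lowers many transcripts of the resting macrophage. Among the pathways that macrophages adjust during activation are cholesterol synthesis, driven by SREBP2, and the antioxidant programme, driven by Nrf2.

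Each condition had 1 array, so no value has a replicate error and no difference has a test. The only measure of spread is the range over the 9 reference arrays, which carried different treatments and are not replicates of each other. Of 25697 probes, 9409 were detected in E33 at a detection p-value under 0.01, within the range of 8538 to 9493 over all 12 arrays. Values are the processed intensities that the authors deposited. Intensities under 50 were raised to 50, and differences are on the log2 scale of these raised values. The comparison covered 10853 probes (42.2%) with an intensity over 50 on at least 1 of the 11 arrays, and 7480 genes when each was read by its brightest probe. A probe counted as higher or lower from a 2-fold difference on, or 1 on the log2 scale. In bulk RNA, fewer cells of a kind and less RNA per cell cannot be told apart. Macrophage markers were present in the E33 culture, with intensities of 3173 for Adgre1 (F4/80), 5793 for Lyz2 (lysozyme) and 11224 for Fcer1g (an Fc receptor chain). Of 16 macrophage markers measured, none differed by 1.5-fold in E33, where 3.94% of all genes were higher and 2.93% lower by that much. The microglial receptor gene Cx3cr1 was at 34.6 in E33, below the floor of 50, and at 72.3 in the non-activated control. Of 12 neuron markers on the array none exceeded 50 on any of the 11 arrays, and of 10 astrocyte markers 1 did.

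E33 moved part of the transcripts that activation had lowered back toward the non-activated level. Most of the transcripts that activation had raised stayed near the reference median. Against the activated control alone, transcripts raised in the median of the 8 compound arrays had a median of -0.21. The median of the 9 reference arrays was at least 2-fold below the non-activated control for 679 probes (6.26% of those tested), called repressed here, and at least 2-fold above it for 819 probes (7.55%), called induced. Over the 679 repressed probes the E33 array had a median difference of 0.29 from the reference arrays, with an interquartile range across probes of 0.0031 to 0.51. It was higher than the reference median for 512 of them, lower for 105 and equal, at the floor, for 62. When each of the 9 reference arrays was set in turn against the median of the other 8, its median over the same probes lay between 0 and 0.035. Over the 9355 probes of neither class the median of E33 was 0.

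The repressed probes of E33 also stood outside the range of the reference arrays more often than other probes did. Of the 679 repressed probes, E33 had the highest value of the 10 arrays for 302 (44.5%) and the lowest for 28 (4.12%). Over all 10853 probes tested, E33 was above all 9 reference arrays for 18.8% and below all 9 for 16.8%. The array with the next most highest values among repressed probes was E19, with 99 (14.6%), and the other 8 arrays had 15 to 48. Among the 9355 probes of neither class the E33 shares were 17.6% highest and 16.4% lowest.

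**Figure D1:**
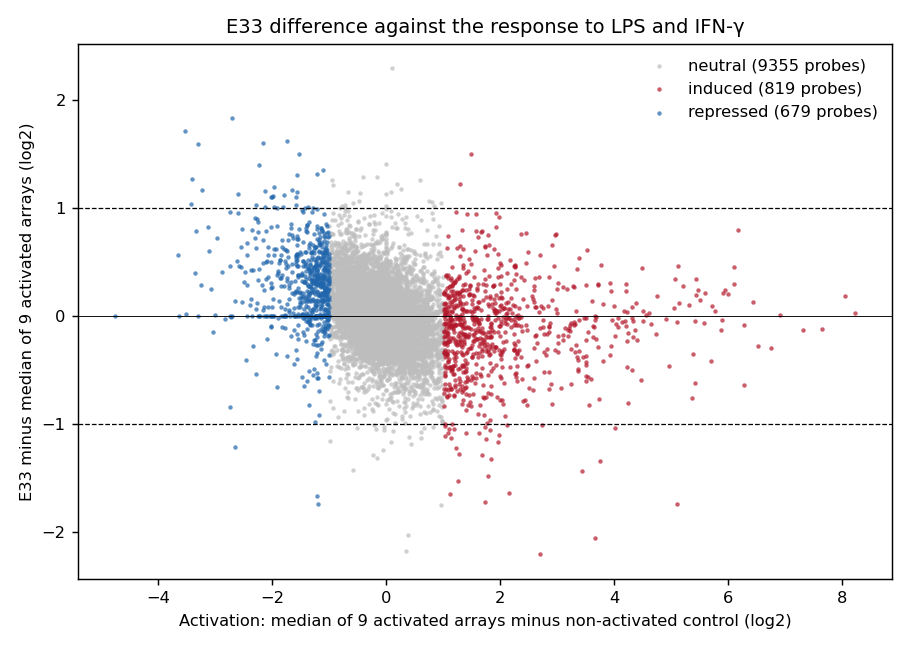
Each point is a probe. The horizontal axis gives the activation response (median of the 9 reference arrays minus the non-activated control, log2) and the vertical axis the E33 difference (E33 minus the same median, log2), with dashed lines at a 2-fold difference. Of the 679 repressed probes 512 lie above 0, and the 819 induced probes lie on both sides with 525 below 0. The 9-array median enters both axes.

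The 9-array median enters both the choice of the classes and the E33 difference, which by construction favours a difference toward the baseline. The shift was therefore also taken from arrays that the classes did not use. With classes chosen from the activated control alone and E33 set against the 8 compound arrays, the repressed median was 0.25. With classes chosen from the 8 compound arrays and E33 set against the activated control, it was 0.28. The induced medians were -0.061 and -0.21 in the same order.

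The return was partial. The remaining share expresses, on the log2 scale, how far E33 still lay from the baseline as a percentage of the same distance for the reference median. Its median over the 679 repressed probes was 79.8% in E33 (interquartile range 64.1% to 99.8%), against 97.4% to 100% in the 9 reference arrays. For 88 repressed probes (13%) the remaining share in E33 was under 50%, against 0 to 24 probes in the reference arrays. For 74 repressed probes the E33 value was within 1.5-fold of the baseline. In E29 the median remaining share was 89.3%, with an interquartile range of 55.8% to 113%. More repressed probes than in E33 had a share under 50% there, 142 (20.9%), and 109 were within 1.5-fold of the baseline.

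The shift was present at every strength of repression and did not rest on dim probes. It was 0.27 for the 491 probes repressed 2- to 3-fold, 0.35 for the 86 repressed 3- to 4-fold, 0.35 for the 84 repressed 4- to 8-fold and 0.48 for the 18 repressed at least 8-fold. The remaining share was 77.6%, 80.0%, 84.5% and 86.4% in the same order, so the most strongly repressed probes kept most of their distance from the baseline. The dimmer 339 repressed probes had a median of 0.27 and the brighter 340 a median of 0.29. The 469 repressed probes with an intensity over 50 on all 11 arrays had a median of 0.30.

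Over the 819 induced probes the median of E33 was -0.10 (interquartile range -0.36 to 0.11), with 294 probes above and 525 below the reference median. This lay inside the range of the reference arrays themselves, which ran between -0.11 in E19 and 0.10 in the activated control. The remaining share of induction was 94.8% in E33, 94.5% in E19 and 57.1% in E29. E33 was nevertheless the lowest of the 10 arrays for 259 induced probes (31.6%), followed by E19 with 206 (25.2%) and E5 with 99. With the activated control as the only reference, that array also set the class, which then held 924 induced probes. Their median in E33 was -0.25, against -0.21 with classes from the 8 compound arrays.

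**Figure D2:**
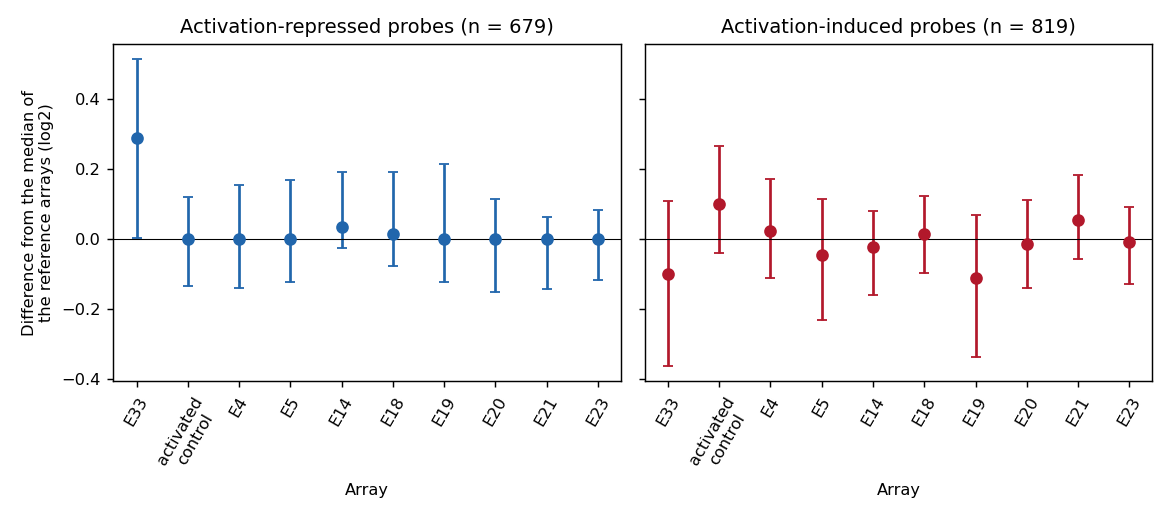
Median difference of each activated array from the reference arrays over the 679 repressed probes (left) and the 819 induced probes (right), log2, with bars for the interquartile range across probes. E33 was set against all 9 reference arrays and each reference array against the other 8. The E33 median of 0.29 lies above the other 9 medians (0 to 0.035) on the left, and its median of -0.10 lies within their range on the right.

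At the 2-fold threshold 57 probes (0.525%) were higher and 56 (0.516%) lower in E33. Of the 57 higher probes 32 (56.1%) were repressed by activation, 2 were induced and 23 were of neither class. Of the 56 lower probes 32 (57.1%) were induced, 3 were repressed and 21 were of neither class. Repressed probes made up 6.26% of the probes tested and induced probes 7.55%. At 1.5-fold, 383 probes (3.53%) were higher and 348 (3.21%) lower. The 9 reference arrays set against each other had 0 to 30 probes at least 2-fold higher and 1 to 48 lower. The 30 higher were those of the activated control and of E19, and the 48 lower were those of E19. Of the 48 lower in E19, 43 were induced, and of its 30 higher 6 were repressed. Many probes lie near the threshold, with 21 higher and 22 lower ones between 1.0 and 1.1 and 33 and 24 between 0.9 and 1.0. Read by gene, 45 (0.602%) were higher and 42 (0.561%) lower. Of these, 27 repressed genes were higher and above all 9 reference arrays, and 21 induced genes were lower and below all 9.

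The repressed genes with the largest rises in E33 covered signalling, lipid metabolism and transcription. Arl11 encodes an ARF-like small GTPase of macrophages. Its intensity was 460 in E33, against 97.3 in the lowest (E23), 141 in the median and 424 in the highest (E4) reference array, and 1637 in the non-activated control. The E33 value was 3.27-fold above the reference median (log2 difference 1.71) and left 51.7% of the repression, but E4 came close to it. Mlycd encodes malonyl-CoA decarboxylase, which controls fatty acid oxidation through malonyl-CoA. It was at 220.3 in E33, between 52.5 and 82.1 with a median of 72.6 in the reference arrays, and at 325 in the non-activated control. E33 was 3.04-fold higher and stood clear of the range, with 25.9% of the repression left.

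Ppargc1b encodes PGC-1β, a coactivator of mitochondrial genes. It was at 317 in E33, between 116 and 186 (median 142) in the reference arrays, and at 447 in the non-activated control. The rise was 2.24-fold (1.16), with 30.0% of the repression left. Against the activated control, its highest reference array, the difference was 0.77. Sesn1 encodes a stress-inducible inhibitor of mTORC1. It was at 208 in E33, between 92.4 and 123 (median 101) in the reference arrays, and at 1091 in the non-activated control, a rise of 1.04 that left 69.7% of the repression. Another Sesn1 probe showed a difference of 0.

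Other repressed genes that rose were close to background in the reference arrays, so their folds depend on the floor. Tmem154, a transmembrane protein gene, was at 178 in E33 and 329 in the non-activated control, while 6 of the 9 reference arrays were under 50 and the highest was at 66.5. It was at least 3.56-fold higher. Rhof, a small GTPase gene, was at least 3.07-fold higher, with 154 in E33, at most 75.2 in the reference arrays and 167 in the non-activated control. Fam78a was at 217 in E33, at most 107 in the reference arrays (median 72.0) and 713 in the non-activated control. Lat, a signalling adaptor best known from T cells, was at 142 in E33, at most 76.6 in the reference arrays and 146 in the non-activated control. In Rhof and Lat the E33 value was thus less than 1.5-fold from the baseline. Stimate, a regulator of calcium entry at the endoplasmic reticulum, was at 168 in E33 and 157 in the non-activated control, with at most 98.9 in the reference arrays. Fbxo21, an F-box protein of a ubiquitin ligase, was at 155 in E33, at most 88.9 in the reference arrays and 186 in the non-activated control. Plxdc1 (1.26) and Mettl8 (at least 2.29-fold higher) complete the 12 repressed genes, together with Fos. A second Plxdc1 probe showed 0.35. In E29, Rhof (157), Plxdc1 (198) and Fos (390) were above their E33 values, and the rest of the 12 were below theirs. With no background correction the differences of these dim genes were smaller, for example 0.78 for Tmem154, 0.80 for Mlycd and 0.79 for Fam78a.

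**Figure D3:**
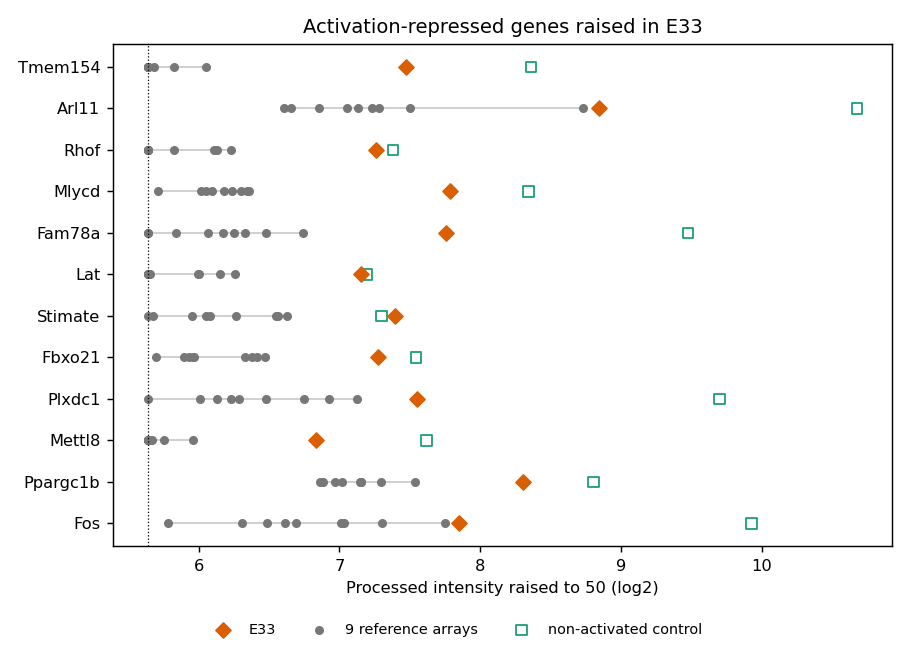
Processed intensity raised to 50 (log2) of the 12 repressed genes with the largest rises in E33, for E33, the 9 reference arrays (grey, joined by a line for their range) and the non-activated control; the dotted line is the floor of 50. E33 lies right of all 9 reference arrays in each gene and left of the non-activated control in all but Stimate.

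Not every repressed gene moved back. Plau, Hmox1 and Tlr13 were repressed by activation and lower still in E33. Plau encodes the urokinase plasminogen activator. Its intensity was 369 in E33, between 1024 and 1532 (median 1234) in the reference arrays, and 2824 in the non-activated control, so that it fell 3.34-fold (-1.74) below the reference median. Tlr13 encodes the receptor for bacterial ribosomal RNA. It was at 126 in E33, between 161 and 486 (median 292) in the reference arrays, and at 1839 in the non-activated control, a fall by 1.22 on the log2 scale. Plau was below every reference array by more than the spread among them, whereas Tlr13 in E18 (161) was close to E33. In E29 Plau was at 331, Tlr13 at 97.4 and Hmox1 at 1127.

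Several genes outside both response classes rose in E33. Il4i1 encodes a secreted L-amino acid oxidase of phagocytes. It had the largest rise of all genes, to 931 in E33, against 144 to 416 (median 190.2) in the reference arrays and 177 in the non-activated control, or 4.90-fold (2.29). The highest reference array was the activated control, against which the difference was 1.16. P2ry6 encodes the UDP receptor that promotes phagocytosis by microglia. It was at 1639 in E33, between 407 and 1096 (median 672) in the reference arrays and at 890.4 in the non-activated control, a difference of 1.29. Mertk encodes a receptor kinase for the uptake of dead cells and was 2.08-fold higher, with 563 in E33, 157 to 533 (median 271) in the reference arrays and 157 in the non-activated control. In both P2ry6 and Mertk the activated control was the highest reference array and close to E33. For P2ry6 the difference from that array alone was 0.58. In E29 Il4i1 was at 656, P2ry6 at 95.1 and Mertk at 69.8. Scimp (1.29), an adaptor of Toll-like receptor signalling, and Homer1 (1.26), a scaffold protein, were also higher, and the 3 Homer1 probes ranged between 0.74 and 1.26. Glipr2, with a reference median at the floor, was at least 2.65-fold higher, and the difference was 0.41 with a floor of 100. From the activated control alone, Scimp differed by 0.26, Homer1 by 0.74 and Glipr2 by 0.89. Among induced genes Lcn2, which encodes the iron-siderophore binding protein lipocalin 2, rose further. It was at 398 in E33, between 50.3 and 248.7 (median 140.5) in the reference arrays and at the lowest deposited value of 10 in the non-activated control. Its difference was 1.50 from the reference median and 0.68 from the activated control.

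The induced genes that fell in E33 included a neutrophil chemokine, a prostaglandin enzyme and the interferon-β gene. Cxcl2, a neutrophil chemokine, had an intensity of 508 in E33, against 1124 to 2221 (median 1709) in the reference arrays and 10 in the non-activated control. It fell 3.36-fold (-1.75) and no reference array came near it. Ptgs2, which encodes cyclooxygenase 2, was at 70.9 in E33, between 136 and 263 (median 222) in the reference arrays and at 10 in the non-activated control. It fell 3.13-fold, and without background correction the difference was -0.82. Ifnb1, which encodes interferon-β, was at 263 in E33 and between 303 and 1071 (median 668) in the reference arrays, with 10 in the non-activated control. The fall by 1.35 on the log2 scale set E33 just below the lowest reference array, E14, and far below the activated control (-2.03). In E29 Ptgs2 was at 77.6, close to E33, while Cxcl2 was at 2844 and Ifnb1 at 1291.

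Ccl24, an eosinophil chemokine, went past the baseline. It was at 299 in E33, between 518 and 1694 (median 938) in the reference arrays and at 434 in the non-activated control, a fall by 1.65. The activated control was its highest reference array (-2.50). Ifi202b, an interferon-inducible gene of the p200 family, was at 152 in E33, between 408 and 1088 (median 633) in the reference arrays and at 37.5 in the non-activated control. That probe fell by 2.06, while another Ifi202b probe showed 0, and genes of this family are near-identical. Cxcl16, a membrane-bound chemokine, was at 24.3 in E33 and between 51.4 and 161 (median 106) in the reference arrays. It was at least 2.13-fold lower, and the difference was -0.09 with a floor of 100. Slc7a11 (-1.09) is described with the Nrf2 targets. In E29 Ifi202b was at 151, Cxcl16 at 17.1, Slc7a11 at 531 and Ccl24 at 963. The others among the 12 induced genes with the largest falls were Eid3 (at least 2.43-fold lower), Fbxo15 (-1.17), Ppfibp2 (-1.14), Fam214b (at least 2.19-fold lower) and Gtf2a1 (-1.11). A second Gtf2a1 probe showed -0.26. Eid3 and Fam214b were under 50 in E33, and with a floor of 100 their differences were -0.28 and -0.13.

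As a list, cytokine and chemokine genes showed no common shift in E33 from the reference median. Ccl24 and Ifnb1, described above as lower, are not in this list. Of 23 cytokine and chemokine genes tested, 17 were induced. Their list had a median difference of 0, with 0 genes at least 2-fold higher and 2 lower (Cxcl2 and Cxcl16), against 0.602% and 0.561% of all genes. The reference arrays were not alike in this list, with medians between -0.37 in E19 and 0.205 in the activated control. Il1b was at 12812 in E33, between 8087 and 15029 (median 14064) in the reference arrays and at 88.4 in the non-activated control. Tnf was at 7171 in E33, between 5804 and 7386 (median 6784) in the reference arrays and at 342 in the non-activated control. Cxcl10, which activation raised at least 300.2-fold, was at 15294 in E33, against 10844 to 15955 (median 15008). All 3 lay inside the range of the reference arrays, as did Il6 (-0.24) and Nos2 (-0.10), the inducible nitric oxide synthase. Against the activated control alone, Nos2 differed by -0.52 and Il6 by -0.24. Ccl2, a monocyte chemokine, was at 6761 in E33, above all 9 reference arrays (1310 to 4352, median 3992), a difference of 0.76. Ccl5 (0.46) and the macrophage growth factor gene Csf1 (0.66) were also above all 9.

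**Figure D4:**
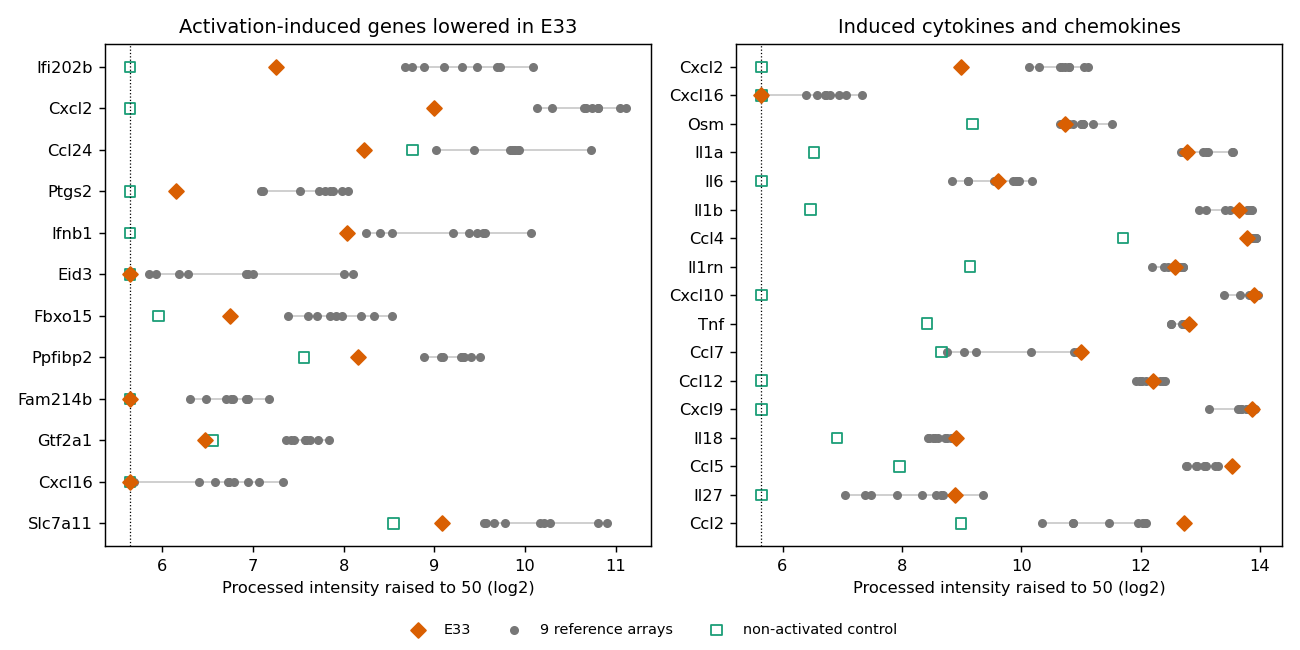
Processed intensity raised to 50 (log2) in E33, the 9 reference arrays and the non-activated control, with the floor of 50 dotted. The 12 induced genes with the largest falls are on the left, where E33 lies left of all reference arrays. The 17 induced genes of the cytokine and chemokine list are on the right, where Cxcl2 and Cxcl16 alone are at least 2-fold lower in E33.

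Feedback genes of NF-κB were not lower as a group. Of 20 tested, 18 were induced, and the median of the list was 0.19. Medians of the same list in the 9 reference arrays lay between -0.24 in E19 and 0.18 in the activated control. Of these genes 0 were past 2-fold in either direction, against 0.602% higher and 0.561% lower of all genes. E33 was above all 9 reference arrays for 6 of them (30.0%, against 19.9% of all genes and 10.4% of all induced genes) and below all 9 for 2. Nfkbie, an inhibitor of NF-κB, was at 1037 in E33 and between 322 and 984 (median 616) in the reference arrays, a difference of 0.75, with the activated control at the top. Nfkb2 (0.51) and Zc3h12a (0.45) were above all 9, and Rel (-0.46) was below. The other probe of Nfkbie showed 0.39 and that of Zc3h12a 0.15.

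Of 37 interferon response genes tested, 34 were induced. None of the 37 differed by 2-fold in E33, where 0.602% of all genes were higher and 0.561% lower. Their median was -0.16, and E33 was below all 9 reference arrays for 13 (35.1%, against 30.4% of all induced genes and 16.6% of all genes) and above for 3. Oas1a, an antiviral oligoadenylate synthetase, was at 157 in E33, between 216 and 331 (median 269) in the reference arrays and at 28.7 in the non-activated control, a difference of -0.78. Tgtp1 (-0.58), Oas3 (-0.57) and Ifi205 (-0.47) had the next largest differences. Oas3 lay inside the range of the reference arrays, and another Oas3 probe showed 0. Highly induced genes such as Gbp2 (0.01), Rsad2 (-0.02) and Irf1 (0.04) lay inside the range, as read from probes chosen after the values were seen.

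Genes of cholesterol synthesis moved away from the non-activated level in E33. Activation itself lowered them, with a median of -0.67 over the 17 genes tested, and the E33 array was lower by a further median of -0.66 against the reference arrays. E33 was below all 9 reference arrays for 13 of the 17 (76.5%, against 16.6% of all genes). It was at least 1.5-fold lower for 10 (58.8%, against 2.93%), at least 2-fold lower for 1 and at least 1.5-fold higher for 1 (5.88%, against 3.94%). Medians of the same list in the 9 reference arrays lay between -0.20 in E4 and 0.12 in E5, and E29 was at -0.22. Without background correction the E33 median was -0.39, with 7 genes at least 1.5-fold lower.

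The promoters of 3 of these genes are printed because the genes were lowest in E33 within the list. Sequences are from RefSeq on GRCm38.p6, from 250 bases before to 50 after the gene's start and in the direction of the gene. Idi1 lies at chr13:8885356-8885655 (plus strand), Hsd17b7 at chr1:169969156-169969455 (minus strand) and Hmgcs1 at chr13:119690101-119690400 (plus strand). Capitals mark the CCAAT box, which reads ATTGG where it lies on the other strand, and in Hmgcs1 also the sterol regulatory element TCACNCCAC.
Idi1: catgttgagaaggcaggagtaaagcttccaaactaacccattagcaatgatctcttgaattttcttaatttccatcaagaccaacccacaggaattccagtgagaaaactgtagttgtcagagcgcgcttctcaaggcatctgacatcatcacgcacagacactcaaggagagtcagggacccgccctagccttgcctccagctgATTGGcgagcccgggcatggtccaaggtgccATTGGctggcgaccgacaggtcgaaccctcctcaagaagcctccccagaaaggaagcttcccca
Hsd17b7: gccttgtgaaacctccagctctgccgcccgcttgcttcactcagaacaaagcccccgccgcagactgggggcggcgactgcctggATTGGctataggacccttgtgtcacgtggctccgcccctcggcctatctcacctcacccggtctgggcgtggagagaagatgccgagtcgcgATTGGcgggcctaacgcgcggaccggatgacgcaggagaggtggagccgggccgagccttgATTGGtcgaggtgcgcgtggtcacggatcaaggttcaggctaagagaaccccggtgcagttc
Hmgcs1: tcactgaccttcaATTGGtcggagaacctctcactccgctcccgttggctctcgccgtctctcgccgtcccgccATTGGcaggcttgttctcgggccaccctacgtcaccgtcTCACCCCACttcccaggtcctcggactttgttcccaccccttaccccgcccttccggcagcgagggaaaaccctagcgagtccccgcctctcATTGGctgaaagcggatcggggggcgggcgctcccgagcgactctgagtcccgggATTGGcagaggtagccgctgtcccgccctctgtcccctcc

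A CCAAT box, the letters bound by NF-Y, was found on either strand in all 14 sterol genes with a promoter window. Of all 27025 genes with a window, 11096 (41.1%) had a match in at least 1 of their windows. Hmgcs1 was the only 1 of the 14 with TCACNCCAC, against 1.44% of all genes with a window. These are matches of letters and not binding sites, and the list was chosen with earlier results of these data known.

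The enzymes stood along the pathway as follows. Hmgcs1, which makes HMG-CoA at its start, was at 3020 in E33 and between 5083 and 6618 (median 5798) in the reference arrays, with 10493 in the non-activated control, a difference of -0.94. Idi1, the isopentenyl diphosphate isomerase, was at 54.8 in E33, between 101 and 136 (median 113) in the reference arrays and at 129 in the non-activated control, a fall by 1.05. E33 was close to the floor there, and with a floor of 100 the difference was -0.18. Fdps (-0.54) and Mvd (-0.54) make the isoprenoid precursors and were also below all 9. Among the later steps, Sqle, the squalene epoxidase, was at 1569.8 in E33, between 2323 and 3206 (median 2647) in the reference arrays and at 4294 in the non-activated control. Cyp51, the lanosterol demethylase, was at 664 in E33, between 992 and 1345 (median 1222) in the reference arrays and at 1719.6 in the non-activated control.

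Hsd17b7, a sterol ketoreductase, was at 572 in E33, between 939 and 1396 (median 1134) in the reference arrays and at 2704 in the non-activated control, a difference of -0.99. Msmo1 (-0.70) and Lss (-0.62) were below all 9 as well. None of these ranges overlapped the E33 value. The regulators were lower too. Srebf2, which encodes SREBP2 itself, was at 247 in E33 and between 353 and 543 (median 422) in the reference arrays, a difference of -0.77, while its activation response was 0.04. Insig1, the sterol sensor partner that retains SREBP in the endoplasmic reticulum, was at 615 in E33 and between 756 and 1115 (median 1006) in the reference arrays. Stard4, a cholesterol transfer protein, differed by -0.66.

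Dhcr7, the last enzyme of the pathway, went the other way. It was at 89.4 in E33, at most 65.4 in the reference arrays (median 51.2) and at 147 in the non-activated control, a difference of 0.80. Ebp (0.02) and Nsdhl (-0.12) lay inside the range of the reference arrays, and 4 Nsdhl probes ranged between -0.58 and 0.04.

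**Figure D5:**
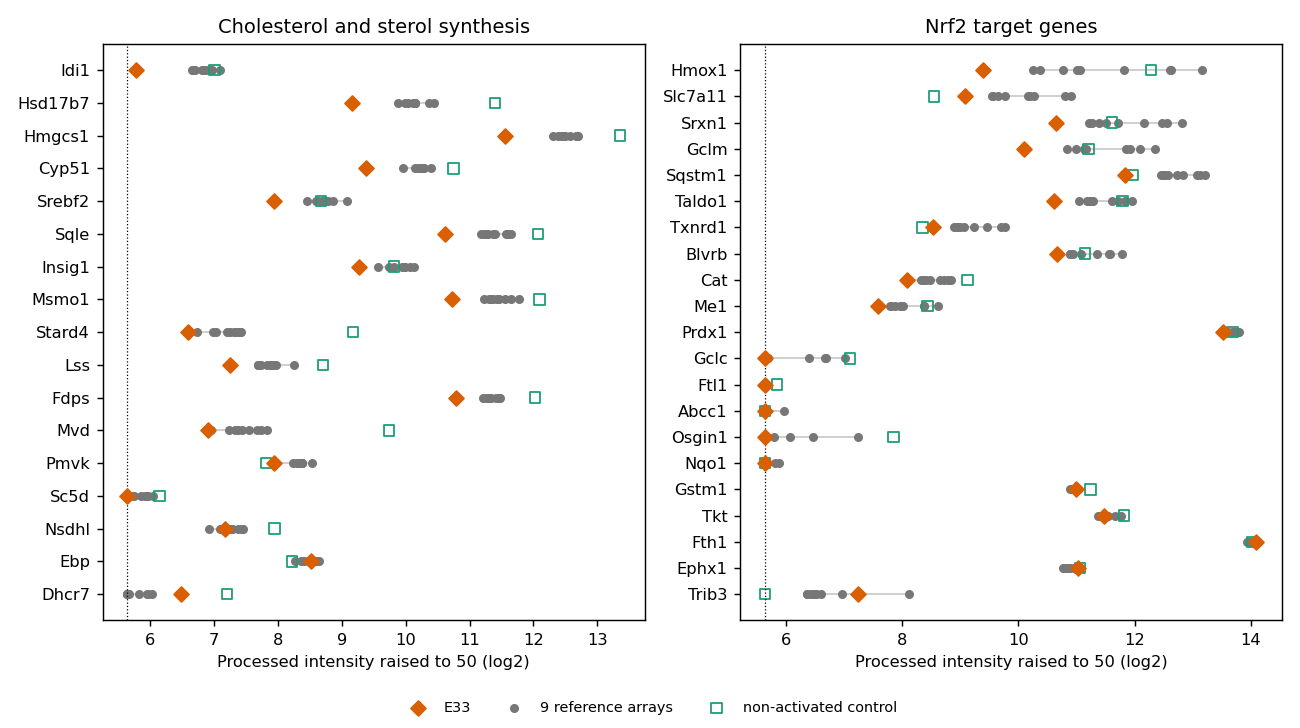
Processed intensity raised to 50 (log2) of the 17 sterol synthesis genes (left) and 21 Nrf2 target genes (right), ordered by the E33 difference, in E33, the 9 reference arrays and the non-activated control. E33 lies left of all reference arrays for 13 sterol genes and 10 Nrf2 targets; the reference arrays themselves spread widely for the upper Nrf2 targets.

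Nrf2 target genes were lower in E33 by an amount that depended on the reference. Of 21 tested, 4 were at least 2-fold lower (19%, against 0.561% of all genes) and 6 at least 1.5-fold lower (28.6%, against 2.93%). E33 was below all 9 reference arrays for 10 (47.6%, against 16.6%) and above all 9 for 1 (4.76%, against 19.9%). The median was -0.19, and -0.09 against the activated control alone. It was -0.40 to -0.37 when the activated control, E4, E18, E21 or E23 was left out of the reference and -0.20 to -0.18 when E5, E14, E19 or E20 was. The reference arrays were not alike in these genes, with medians of 0.55 in E19, 0.39 in E5, 0.24 in E20 and 0.18 in E14, and of -0.15 in the activated control. Hmox1, which encodes the heme-degrading enzyme heme oxygenase 1, was at 672 in E33, against 1223 (E18) to 9112 (E19) with a median of 2146 in the reference arrays and 1321 in the activated control. The non-activated control was at 4969. The difference was -1.67 against the 9 arrays, -0.97 against the activated control alone, and -1.50 without E5, E19 and E20, a choice of arrays made after the values were seen.

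Gclm, a subunit of the enzyme that starts glutathione synthesis, was at 1099 in E33, between 1836 and 5229 (median 2297) in the reference arrays and at 2365 in the non-activated control, a fall by 1.06. Srxn1, which encodes sulfiredoxin, was at 1603 in E33, between 2379 and 7167 (median 3363) in the reference arrays and at 3119 in the non-activated control, a fall by 1.07. Slc7a11, the cystine importer, was at 541 in E33, between 749 and 1917 (median 1150.5) in the reference arrays and at 374 in the non-activated control, a fall by 1.09. The activated control was the lowest reference array in Gclm and Slc7a11, and against it alone the differences were -0.74 for Gclm, -0.62 for Srxn1 and -0.47 for Slc7a11. Sqstm1 (-0.90), an autophagy receptor, and Taldo1 (-0.67), an enzyme of the pentose phosphate pathway, were below all 9. Nqo1 was under 50 in E33 and in the reference median. Trib3 (0.74), also a target of ATF4, was inside the range.

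The Srxn1 promoter is printed because this gene fell and held 3 matches to the antioxidant response element, the site class bound by Nrf2. It lies at chr2:152105274-152105573 (plus strand, GRCm38.p6, RefSeq), and capitals mark TGACNNNGC or TGAGNNNGC on either strand.
Srxn1: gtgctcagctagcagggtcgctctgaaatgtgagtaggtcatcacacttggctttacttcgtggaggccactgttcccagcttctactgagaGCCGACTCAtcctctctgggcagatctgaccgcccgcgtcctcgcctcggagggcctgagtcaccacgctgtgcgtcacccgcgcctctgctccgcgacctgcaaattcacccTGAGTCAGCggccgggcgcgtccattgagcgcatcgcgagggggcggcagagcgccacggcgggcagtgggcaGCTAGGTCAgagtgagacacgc

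This element was found in 9 of 18 Nrf2 targets with a window (50%), in 9 of 14 sterol genes (64.3%) and in 30.8% of all genes with a window. Its presence therefore did not separate the Nrf2 targets from the sterol genes.

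Immediate early genes were raised in E33 in part. Of 20 immediate early and MAPK feedback genes tested, 3 were at least 2-fold higher (15%, against 0.602% of all genes), 0 at least 2-fold lower, and 8 above all 9 reference arrays (40.0%, against 19.9%) with 2 below. Fos, an AP-1 subunit, was at 231 in E33, between 55.1 and 215 (median 103) in the reference arrays and at 972 in the non-activated control, a difference of 1.16. The activated control was the highest reference array, and against it alone the difference was 0.10. Jun, its partner in AP-1, was at 293 in E33, between 104 and 194 (median 133) in the reference arrays and at 212 in the non-activated control, a rise of 1.14. Egr2, a zinc finger factor, was at 1134 in E33, between 418 and 862 (median 561) in the reference arrays and at 958 in the non-activated control, a rise of 1.02. Jun and Egr2 stood clear of the reference range, which Fos did by little. In the other direction Dusp4, a MAPK phosphatase, was at 361 in E33 and between 425 and 1279 (median 699.9) in the reference arrays (-0.96), and its 3 probes ranged between -0.96 and 0. Zfp36, which encodes the mRNA decay factor tristetraprolin, was at 3329 in E33, between 5427 and 6987 (median 5711) in the reference arrays and at 1436 in the non-activated control, a difference of -0.78.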

How the data were processed

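RNA from 12 BV2 cultures, 1 per condition, was hybridised to single-colour Illumina bead arrays. The deposited processed intensity values of the authors were used as the main data. Their array medians of 14.9 to 15.0 and lowest value of 10, held by 45.1% to 45.2% of probes, show a linear scale. The way they were normalized is absent from the sources used here, which name GenomeStudio 2010.3, per the submitters' processing notes. The deposited scanner table holds, per the file headers, a mean bead intensity and a detection p-value for each probe. It served for detection and for alternatives made with limma 3.58.1 (R 4.3.3), by neqc with an offset of 16 or by quantile normalization. Above the lowest value, each array's processed values ranked probes as its scanner intensities did (Spearman's rho 1). Of the processed values over 50, 90.7% to 100% were detected at a p-value under 0.01, depending on the array.

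Processed values were raised to 50 and put on the log2 scale, and E33 was compared with the median of the 9 reference arrays (Python 3.11.15, numpy 2.4.6, pandas 2.3.3). Folds against a value at the floor are written as "at least". Of 25697 probes, 23978 had 1 annotated gene, 0 had several and 1719 had none, and 23962 were matched to RefSeq symbols by gene ID. Annotations of the array can be old. A gene was read by its probe with the highest mean over the 12 arrays. P2ry12 did not pass the intensity filter and Csf1r had no probe in the annotation used here.

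Members and the 37 gene lists were chosen with earlier results of these data known. Genes were named by rule: the 15 largest rises and 15 largest falls past 2-fold and outside the range of the 9 arrays, the 12 largest rises among repressed and the 12 largest falls among induced genes outside that range, up to 4 members of each list with the largest differences, and Nos2, Tnf, Il6, Il1b, Cxcl10, Cx3cr1, P2ry12, Csf1r and Trem2. Any further member of a list named with a value was chosen after the values were seen. With 1 array per condition there is no replicate error and no p-value. Precision is limited by the number of arrays. Simulated data were used to test the counting. Alternatives covered the floor, background correction, centring, detection, the reference arrays, the class and call thresholds and a limma fit.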

Additional observations from a re-analysis of the deposited data

How the results depend on the processing

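No paired analysis was possible because there was 1 array per condition. Signals near background limit the counts. Of 316 alternative values of the 14 main results, 265 stayed close to the main value, 51 moved more and 0 were called in the opposite direction. Close meant within 1.5 times for a count. For a median it meant inside an interval of the median across probes or genes, which does not measure the spread between arrays. Of 995 alternative values for 51 named genes, 90 moved by more than the standard deviation of the reference arrays. A change of direction was counted only for genes with a difference of at least 1, and 0 were found. Small differences did change sign against the activated control alone, as in Tnf (0.08 to -0.04) and Cxcl10 (0.03 to -0.05). Leaving out each reference array in turn gave 46 to 57 higher and 50 to 62 lower probes, 670 to 685 repressed and 810 to 819 induced probes, repressed medians of 0.28 to 0.31, induced medians of -0.12 to -0.094, a neutral median of 0, remaining shares of 78.6% to 80.6%, 303 to 333 repressed probes above all references and 260 to 278 induced ones below. The sterol median was then -0.70 to -0.64 (10 to 11 genes lower) and the Nrf2 median -0.40 to -0.18 (6 to 7).

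Raised to 10, values gave 170 higher and 154 lower probes, a repressed median of 0.37, a neutral median of -0.011 and a share of 75.4%. Raised to 100, they gave 33, 32 and a share of 82.7%. Without background correction there were 12 higher, 16 lower, 309 repressed and 529 induced probes, medians of 0.24 (repressed) and -0.0012 (neutral), a share of 82.8%, 160 repressed probes above all 9 and 157 induced ones below. Centring gave a neutral median of -0.0029. Probes detected on all 11 arrays gave 33 higher, 34 lower, 437 repressed and a neutral median of -0.010. The activated control alone, which then also set the classes (754 repressed and 924 induced probes), gave medians of 0.35 and -0.25. The share was 74.4%, with 586 and 707 probes beyond that array. The mean of the 9 gave a neutral median of -0.012, and adding E29 left 100 induced probes below all.

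Classes at 1.5-fold held 1789 repressed and 1432 induced probes, with a repressed median of 0.20 and 723 and 473 probes beyond the 9. At 4-fold they held 102 and 303, with medians of 0.38 and -0.074, a share of 84.8%, and 51 and 81 probes beyond. Classes from the activated control gave an induced median of -0.061. Classes from the 8 compounds gave -0.21, with 478 and 600 probes beyond the activated control. At 1.5-fold 383 probes were higher and 348 lower, and at 3-fold 6 and 11. A limma fit with the 9 arrays as 1 group, although they are not replicates, called 20 higher and 20 lower.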

Other observations

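Slc40a1 and Spic, the last a gene of no list, were lower in E33, as was Hmox1, described above. Slc40a1 encodes ferroportin, which exports iron from macrophages. Its intensity was 959 in E33, against 1462 to 4578 (median 2139) in the reference arrays and 4268 in the non-activated control, a fall by 1.16 on the log2 scale. Spic encodes a transcription factor of iron-recycling macrophages. It was at 55.0 in E33, against 158 to 304 (median 225) in the reference arrays and 173 in the non-activated control, a fall by 2.03, or by 1.17 with a floor of 100. Another Spic probe showed 0. In E29 Slc40a1 was at 416 and Spic at 41.3. Setting these genes side by side was a choice made after their values were seen. The ferritin heavy chain gene Fth1 was at 17433 in E33 and at 16676 in the reference median. The list of metallothioneins, iron and zinc (14 genes tested) had a median of 0. In it 2 genes were at least 2-fold lower (14.3%, against 0.561% of all genes). E33 was above all 9 reference arrays for 2 (14.3%, against 19.9%) and below all 9 for 4 (28.6%, against 16.6%).

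The largest fall of a named gene was that of Rbm45, which encodes an RNA-binding protein. It was at 109.8 in E33, against 447 to 604 (median 498) in the reference arrays and 391 in the non-activated control, or 4.53-fold lower. Ptpn14, a tyrosine phosphatase gene, was 3.38-fold lower (-1.76). Gnat3 and Paip1 were under 50 in E33 and at least 2.70-fold and 2.25-fold lower, and Fcrl1 (-1.24) was near the floor. With a floor of 100 Gnat3 differed by -0.43, Fcrl1 by -0.25 and Paip1 by -0.17.

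Of 16 G protein-coupled and purinergic receptor genes, 1 (P2ry6) was at least 2-fold higher (6.25%, against 0.602% of all genes) and 3 were at least 1.5-fold higher (18.8%, against 3.94%). E33 was above all 9 reference arrays for 4 (25%, against 19.9%) and below all 9 for 0 (against 16.6%). Gpr65, a proton-sensing receptor, was at 117 in E33, at most 94.3 in the reference arrays (median 77.6) and at 673 in the non-activated control. The strongly repressed receptor gene Gpr183 was under 50 in E33 and in the reference arrays, and at 1351 in the non-activated control. Of 12 FoxO, PI3K and mTOR readouts the median was 0.27, with Sesn1 the only gene past 2-fold (8.33% higher, against 0.602% of all genes). Klf2, with its reference median at the floor, was at least 1.73-fold higher. Of 29 lysosome and autophagy genes, 4 were at least 1.5-fold lower (13.8%, against 2.93% of all genes), among them Gla (-0.92), Ctsl (-0.86) and Gabarapl1 (-0.70), while 9 were above all 9 reference arrays (31%, against 19.9%) and 7 below (24.1%, against 16.6%). Of 32 ATF4 and unfolded protein response genes the median was 0.20, and 1, Slc7a11, was at least 2-fold lower (3.12%, against 0.561% of all genes). Medians of this list in the 9 reference arrays lay between -0.10 in the activated control and 0.31 in E4, above E33.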
